A study of Mus musculus with 30 samples.

Results

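The mitosis and spindle genes described here are 42 genes of the G2 and M phases of the cell cycle, picked by symbol from a table of read counts for 54146 genes. They fall into 9 roles: entry into mitosis (Ccna2, Ccnb1, Ccnb2, Cdk1, Cks2, Foxm1), mitotic kinases (Aurka, Plk1), the chromosomal passenger complex (Aurkb, Birc5, Incenp, Cdca8), the spindle checkpoint (Bub1, Bub1b, Ttk, Mad2l1), kinetochores (Cenpa, Cenpe, Cenpf, Ndc80, Nuf2, Spc24, Spc25), the spindle (Tpx2, Kif11, Kif2c, Nusap1, Hmmr, Tacc3, Haus4, Stmn1), cytokinesis (Anln, Prc1, Ect2, Racgap1, Kif20a, Kif23), exit from mitosis (Cdc20, Ube2c) and the chromosomes (Mki67, Top2a, Hmgb2). All 42 symbols were in the table. Kif11, the motor that pushes spindle poles apart, is listed at 0 reads in all 29 assigned libraries, where a count of 0 (a floor of 3 reads) allows between 0.375 and 0.855 CPM on the scale used below. The goblet cell gene Muc2 is listed at 0 in all of them too, while the other goblet cell markers have many reads. Nek2, Plk4 and Haus1, further mitosis genes outside the set, were also at a mean of 0 CPM in vehicle and in ICZ mice with F2 to F5 added. Why these genes are at 0 was not tested.

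Epithelium came from the small intestine of wild type (WT in the titles) female C57BL/6 mice, 8 to 10 weeks old, which had spent 1 week on the semi-purified diet AIN93G. Vehicle mice received corn oil by gavage, and ICZ mice received 10 µg of indolo[3,2-b]carbazole (ICZ), an agonist of the aryl hydrocarbon receptor (AHR), in the same oil. Tissue was taken 12 h later, and EDTA released the epithelium of each mouse in 5 successive fractions, F1 to F5, each of which gave a 3′ end RNA sequencing library. There were 3 vehicle mice with 15 libraries and 3 ICZ mice with 14, since ICZ replicate 3 enters with F2 to F5 only. Each fraction is a mixture of cells, and fewer cells of a type and less RNA per cell cannot be told apart in such samples.

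A cell enters mitosis when cyclin B and the kinase Cdk1 become active together. Chromosomes then condense, kinetochores attach them to spindle microtubules, and the spindle checkpoint holds the cell until every chromosome is attached. Cdc20 and the conjugating enzyme Ube2c next help the anaphase-promoting complex to destroy cyclin B, and the central spindle and an actin ring divide the cell. Many of these genes are transcribed mainly in G2 and M, under the FOXM1, B-MYB and DREAM or MuvB complexes, which act through CHR elements in promoters, often beside CCAAT boxes bound by NF-Y. In the small intestine, dividing cells lie in the crypts, as stem cells at the base and transit-amplifying cells above them, while the enterocytes of the villus have left the cell cycle.

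Libraries held between 4359673 and 7819837 gene reads (median 6351137), and the 42 genes took 3700 to 24053 of these reads per library. Levels below are CPM, read counts set relative to a library size that was scaled by TMM. The F5 library of ICZ replicate 1 stood apart, because genes of the mitochondrial genome took 53.7% of its gene reads against a median of 24.6% over the 29 libraries. The F1 library of vehicle replicate 1 stood apart in the genes described here, with a summed level of 1249 CPM against 625 and 783 in the F1 libraries of vehicle replicates 2 and 3. Cyp1a1, the classical target gene of AHR, was looked up as a check of the treatment labels: with F2 to F5 added per mouse it lay between 13.4 and 75 CPM in ICZ mice and between 0 and 0.129 CPM in vehicle mice. Ahrr and Tiparp, looked up in the same check, overlapped between the treatments. Ahrr lay between 0.117 and 0.529 CPM in ICZ mice and between 0.431 and 0.794 CPM in vehicle mice. Tiparp lay between 53.4 and 67.2 CPM in ICZ mice and between 60.6 and 78.2 CPM in vehicle mice.

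Promoter sequences show what the genes share in the letters around their starts. RefSeq promoters on GRCm38.p6, from 250 bases before to 50 after the start, were at hand for 34 of the 42 genes, as 36 promoters. The sequences printed are those of 6 genes that passed the test of ICZ against vehicle when replicate numbers were blocked, described further on. CHR letters (TTTGAA, also read as TTCAAA on the other strand, or the related TTCGAA) and CCAAT boxes (CCAAT, or ATTGG on the other strand) are in capitals. The promoters lie at chr2:164769679-164769978 on the + strand for Ube2c, chr10:69352863-69353162 on the - strand for Cdk1, chr9:70421505-70421804 on the - strand for Ccnb2, chr7:122159185-122159484 on the + strand for Plk1, chr2:118597961-118598260 on the + strand for Bub1b and chr14:54554312-54554611 on the - strand for Haus4.
Ube2c: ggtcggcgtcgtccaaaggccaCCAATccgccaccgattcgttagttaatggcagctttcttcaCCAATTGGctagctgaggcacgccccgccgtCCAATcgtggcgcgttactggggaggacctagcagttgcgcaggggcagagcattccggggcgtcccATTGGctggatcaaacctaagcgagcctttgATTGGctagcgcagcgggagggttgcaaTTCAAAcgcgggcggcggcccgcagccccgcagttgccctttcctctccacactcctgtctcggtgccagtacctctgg
Cdk1: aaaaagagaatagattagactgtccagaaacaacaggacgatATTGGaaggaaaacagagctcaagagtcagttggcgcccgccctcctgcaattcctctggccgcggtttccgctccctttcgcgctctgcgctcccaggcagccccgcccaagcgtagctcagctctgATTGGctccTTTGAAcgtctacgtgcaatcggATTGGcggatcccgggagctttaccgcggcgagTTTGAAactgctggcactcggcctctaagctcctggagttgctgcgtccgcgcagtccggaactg
Ccnb2: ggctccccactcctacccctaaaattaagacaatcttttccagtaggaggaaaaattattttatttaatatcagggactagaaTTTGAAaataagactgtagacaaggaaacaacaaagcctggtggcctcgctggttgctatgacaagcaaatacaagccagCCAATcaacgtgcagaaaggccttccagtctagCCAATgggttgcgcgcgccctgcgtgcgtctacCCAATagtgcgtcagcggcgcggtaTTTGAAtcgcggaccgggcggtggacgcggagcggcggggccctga
Plk1: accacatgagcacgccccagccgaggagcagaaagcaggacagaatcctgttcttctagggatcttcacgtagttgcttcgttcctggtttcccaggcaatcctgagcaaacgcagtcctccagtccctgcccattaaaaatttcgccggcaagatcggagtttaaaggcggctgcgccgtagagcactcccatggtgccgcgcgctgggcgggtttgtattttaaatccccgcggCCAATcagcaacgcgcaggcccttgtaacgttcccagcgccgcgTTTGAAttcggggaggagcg
Bub1b: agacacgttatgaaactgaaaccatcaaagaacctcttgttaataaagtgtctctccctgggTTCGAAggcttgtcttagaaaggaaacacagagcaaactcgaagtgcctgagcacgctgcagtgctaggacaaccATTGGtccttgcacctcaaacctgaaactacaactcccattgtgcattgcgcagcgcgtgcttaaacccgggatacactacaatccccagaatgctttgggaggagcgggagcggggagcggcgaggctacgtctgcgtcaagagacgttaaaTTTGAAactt
Haus4: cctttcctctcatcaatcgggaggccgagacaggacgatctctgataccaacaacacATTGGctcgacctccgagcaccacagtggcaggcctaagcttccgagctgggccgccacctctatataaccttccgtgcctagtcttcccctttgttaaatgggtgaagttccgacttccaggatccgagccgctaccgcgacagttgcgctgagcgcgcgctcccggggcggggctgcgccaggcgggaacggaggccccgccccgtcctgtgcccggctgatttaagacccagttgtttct

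Of the 36 promoters 27, or 75%, held CHR letters on either strand, against 19.2% of all 32851 RefSeq mouse promoters of the same length. TTTGAA alone was in 72.2% of the 36 and in 17.9% of all, and TTCGAA in 8.33% and 1.56%. CCAAT was in 77.8% of the 36 and in 37.4% of all, and 52.8% held at least 2 CCAAT boxes against 11.7% of all. Both motifs stood together in 66.7% of the 36 promoters and in 7.52% of all. The CHR matches lay close to the start, 26 of 38 within 50 bases of it, with a median position of -10, and CCAAT boxes lay further upstream at a median of -67. Ube2c had 6 CCAAT matches, 2 of which share letters in one CCAATTGG run, and a CHR at -29. Haus4, which encodes a subunit of the augmin complex, had no CHR letters in this window.

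**Figure D1:**
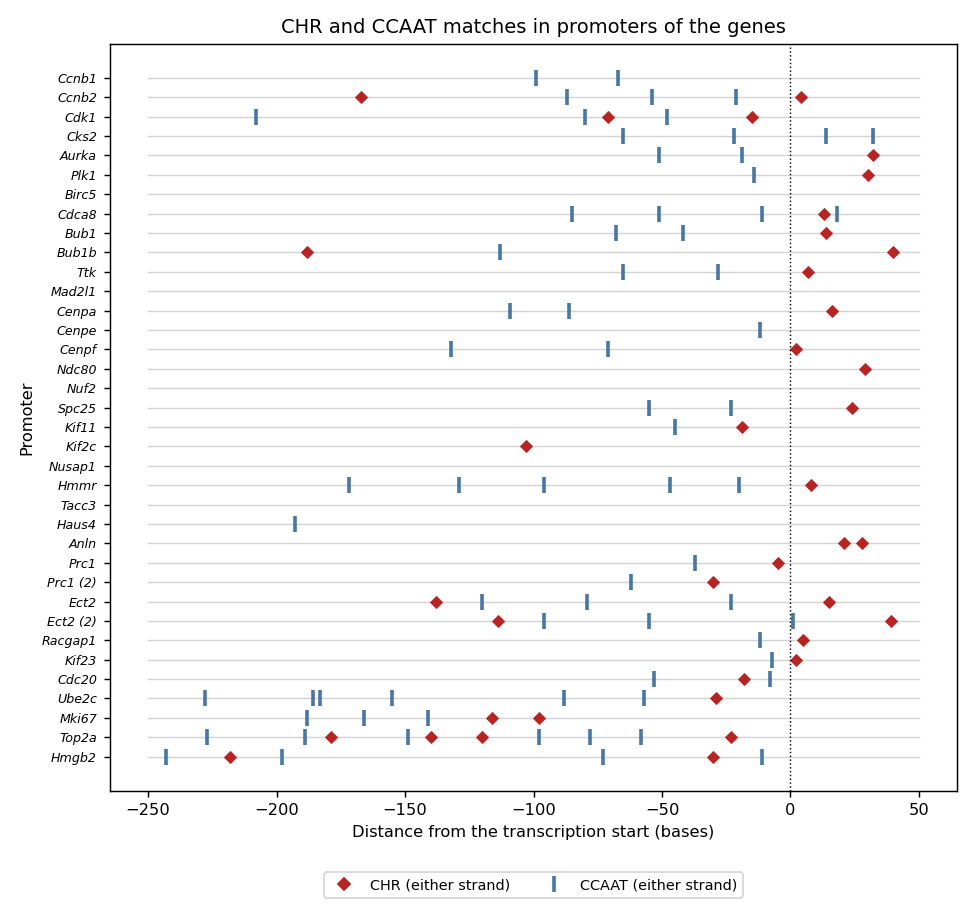
Positions of CHR letters (red diamonds) and CCAAT boxes (blue bars), on either strand, in the 36 RefSeq promoters, in bases from the transcription start. Most CHR diamonds lie within 50 bases of the start, with CCAAT bars upstream of them.

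The fractions of the vehicle mice were compared to see how the genes are spread over the order of release without ICZ. Transcripts of mitosis were lowest in F1 and highest in F4 and F5. Summed over the 42 genes, F1 libraries of vehicle replicates 1, 2 and 3 lay at 1249, 625 and 783 CPM, F2 at 1255, 1445 and 1311, F3 at 1574, 1969 and 1757, F4 at 1604, 2420 and 2217, and F5 at 1756, 1862 and 2769 CPM. Each vehicle mouse had more in F5 than in F1, by a ratio of 1.41, 2.98 and 3.54. The ICZ mice with an F1 library showed ratios of 2.19 and 4.42. By group means 40 of the 41 genes with reads were lowest in F1 in vehicle mice and 41 of 41 in ICZ mice.

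**Figure D2:**
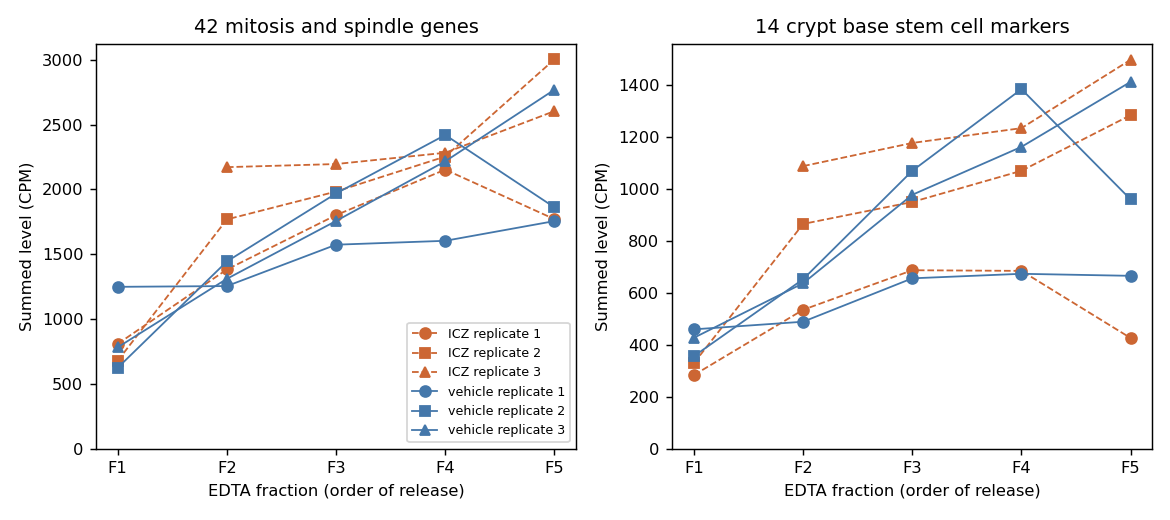
Summed level in CPM of the 42 mitosis and spindle genes (left) and of 14 crypt base stem cell markers (right) in each library, by fraction, with a line per mouse. Both sums are lowest in F1 in each of the 5 mice with an F1 library, and from F2 on replicate 1 of both treatments is low in stem cell markers.

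By the quasi-likelihood F test of edgeR, blocked by mouse and adjusted after Benjamini and Hochberg at 0.05, 38 of 40 tested genes rose from F1 to F5 in vehicle mice and 0 fell, where 14.9% of all 13164 tested genes rose. Kif11 and Cks2, a CDK-binding subunit with few reads, were left out by the filter on low counts. The log2 fold changes of the 40 genes ran from 0.72 to 1.73 with a median of 1.33, against a median of 0.02 over all tested genes. The F1 and F5 libraries did not overlap for 38 of the 40, where 19.7% of all tested genes were higher in F5 without overlap. Without vehicle replicate 3 the count was 12 of 40, where 6.67% of all tested genes passed in either direction. It was 33 without vehicle replicate 2, against 14.7% of all, and 40 without vehicle replicate 1, whose F1 library was high, against 31.4% of all.

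Among genes of mitotic entry, 5 of 5 tested rose. Cdk1, the kinase that drives mitosis, lay at 19.7, 13.8 and 13.5 CPM in the F1 libraries of vehicle replicates 1 to 3 and at 31.5, 38.9 and 56.6 in F5. All F5 values were above all F1 values, and the log2 fold change was 1.45 ± 0.32 (SE, adjusted p = 0.00589, edgeR). Cyclin A2 (Ccna2) rose by 1.08 ± 0.22 (adjusted p = 0.00191) and cyclin B1 (Ccnb1) by 1.54 ± 0.30 (adjusted p = 0.00226) on the log2 scale. Foxm1, the transcription factor of the G2 and M programme, rose by 1.38 ± 0.28 (adjusted p = 0.0015).

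Both mitotic kinases rose, Aurka, which acts at spindle poles, by 1.27 ± 0.33 (adjusted p = 0.0123) and Plk1 by 0.85 ± 0.29 (adjusted p = 0.0453) on the log2 scale. Plk1 had one of the 3 smallest changes of the set. It measured 44, 21.6 and 22.2 CPM in F1 and 40.1, 46.8 and 71.2 CPM in F5, so that in vehicle replicate 1 alone F5 was below F1.

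Of the passenger complex, which corrects faulty attachments and moves to the midzone, 3 of 4 rose. Birc5 (survivin) did not pass, at 75.6, 37.9 and 36.4 CPM in F1 and 68, 72 and 106 CPM in F5 (log2 fold change 0.72 ± 0.30, adjusted p = 0.0926). Here too the groups overlapped through the F1 library of vehicle replicate 1, and without that mouse Birc5 stood at 1.24 (adjusted p = 0.000118). The kinase of the complex, Aurkb, rose by 1.52 ± 0.31 (adjusted p = 0.0015).

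All 4 checkpoint genes rose, with a median log2 fold change of 1.31. Ttk, the kinase known as MPS1, lay at 16.1, 5.24 and 9.42 CPM in F1 and at 24.3, 21.6 and 31 CPM in F5 (1.31 ± 0.33, adjusted p = 0.0101). Every F5 library was above every F1 library. Bub1b, which encodes BUBR1, rose by 1.12 ± 0.31 (adjusted p = 0.0136), and Mad2l1 (MAD2) by 1.43 ± 0.40 (adjusted p = 0.0201).

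The 7 kinetochore genes all rose, between 1.25 and 1.60 on the log2 scale. Cenpf, a large kinetochore protein made in G2, lay at 67.2, 27.8 and 45.8 CPM in F1 and at 96.1, 110 and 154 CPM in F5, without overlap (1.34 ± 0.30, adjusted p = 0.00693). In the NDC80 complex, which grips microtubules, Ndc80 rose by 1.60 ± 0.23 (adjusted p = 0.000121), Nuf2 by 1.40 ± 0.31 (adjusted p = 0.00334), Spc24 by 1.34 ± 0.26 (adjusted p = 0.00171) and Spc25 by 1.25 ± 0.25 (adjusted p = 0.00206). The 4 subunits thus changed by amounts that differed by less than their standard errors added together. Of the 50-base runs in the last 300 bases of Cenpf 15.9% recur in other genes, so its reads are less certain than those of its neighbours in the list.

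Among spindle genes 6 of 7 tested rose. Nusap1, which bundles microtubules, measured 40.7, 22.2 and 30.2 CPM in F1 and 57, 70.1 and 101 CPM in F5, without overlap (1.27 ± 0.22, adjusted p = 0.00105). Haus4 did not pass, at 6.34, 3.97 and 5.89 CPM in F1 and 7.38, 8.4 and 14.2 CPM in F5 (0.85 ± 0.32, adjusted p = 0.0539). Its F5 libraries were nevertheless all above its F1 libraries. Tpx2, which activates Aurora A on the spindle, rose by 1.32 ± 0.26 (adjusted p = 0.00227), and Stmn1, which takes microtubules apart, by 1.36 ± 0.41 (adjusted p = 0.0319).

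All 6 cytokinesis genes rose. Kif23, the motor of the centralspindlin complex, had the smallest adjusted p of the set. It lay at 28.1, 17.9 and 22.4 CPM in F1 and at 54, 63.9 and 87.9 CPM in F5, where the lowest F5 value was well above the highest F1 value (1.55 ± 0.19, adjusted p = 4.3e-05). Its partner Racgap1 rose by 1.48 ± 0.23 (adjusted p = 0.000271). Ect2, the exchange factor that activates RhoA at the cleavage plane, went from 6.21, 5.24 and 4.71 CPM in F1 to 16.4, 16.4 and 18.3 CPM in F5 (1.65 ± 0.26, adjusted p = 0.000262).

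Genes of mitotic exit also rose. Ube2c lay at 74.7, 33 and 46.4 CPM in F1 and at 106, 113 and 156 CPM in F5 (1.27 ± 0.26, adjusted p = 0.00445). Cdc20, the activator of the anaphase-promoting complex, had the largest log2 fold change of the set, 1.73 ± 0.35 (adjusted p = 0.00166), at 3.31, 1.43 and 2.65 CPM in F1 and 6.66, 6.53 and 12.3 CPM in F5. Neither gene's F1 and F5 libraries overlapped.

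The chromosome genes rose as well. Top2a, the topoisomerase that untangles sister chromatids, lay at 284, 142 and 167 CPM in F1 and at 384, 394 and 672 CPM in F5 (1.26 ± 0.29, adjusted p = 0.008). Mki67, whose protein Ki-67 coats mitotic chromosomes, rose by 1.16 ± 0.23 (adjusted p = 0.0028). Hmgb2, a DNA-bending protein, rose by 1.71 ± 0.35 (adjusted p = 0.0016), at 1.24, 3.33 and 3.24 CPM in F1 and 9.18, 9.6 and 6.65 CPM in F5.

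**Figure D3:**
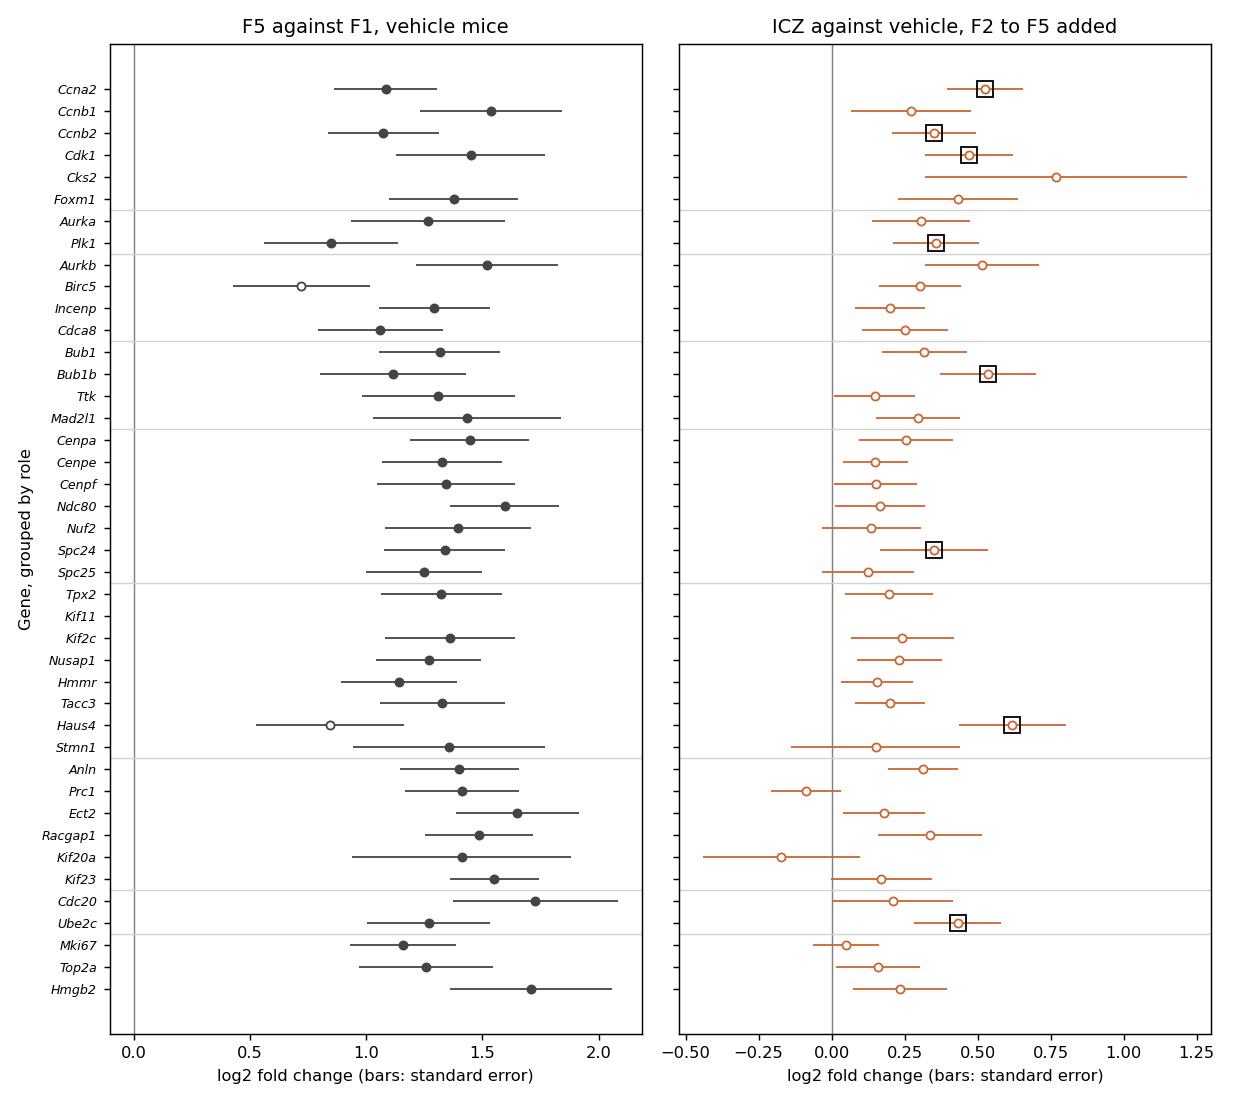
Log2 fold change and standard error of each gene, by role, for F5 against F1 in vehicle mice (left) and ICZ against vehicle with F2 to F5 added per mouse (right). Filled points have an adjusted p under 0.05, and black squares mark the 8 genes with an adjusted p under 0.05 once the replicate number was a block; nearly all points lie to the right of 0 in both panels.

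The steps between neighbouring fractions were also fitted, and differences between the steps were not tested. The median log2 fold change of the 40 genes was 0.61 from F1 to F2, 0.35 from F2 to F3, 0.29 from F3 to F4 and 0.02 from F4 to F5. From F1 to F2 the summed level went from 1249 to 1255 CPM in vehicle replicate 1. It went from 625 to 1445 CPM in vehicle replicate 2 and from 783 to 1311 CPM in vehicle replicate 3. In no step did a gene of the set pass the adjusted threshold in edgeR, DESeq2 or limma voom, where 0%, 0%, 0.41% and 0.0684% of all tested genes passed in the 4 steps in edgeR. At an unadjusted p under 0.05 there were 23, 9, 6 and 0 of the 40, against 11%, 9.98%, 8.4% and 7.25% of all tested genes. From F4 to F5 the mice went different ways: 29 of 40 genes were higher in F5 in vehicle replicate 1, 4 in vehicle replicate 2 and 37 in vehicle replicate 3. In ICZ replicates 1, 2 and 3 the numbers were 10, 38 and 34. A slope over fraction number rose for 39 of 40 genes, with a median of 0.31 on the log2 scale per fraction, where 18.3% of all tested genes had a rising slope. Without vehicle replicate 3 it rose for 21, where 14.2% of all tested genes passed in either direction.

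In ICZ mice F5 could be compared with F2 in all 3 animals. By the same test 16 of 40 genes rose and 0 fell, where 6.69% of all 13328 tested genes rose, and the median log2 fold change was 0.45 against 0.03 over all tested genes. F2 and F5 did not overlap for 9 of 40, against 10.7% of all tested genes higher in F5. The smallest adjusted p was that of Cenpf (0.85 ± 0.12, adjusted p = 0.00012), followed by Bub1, a checkpoint kinase (1.07 ± 0.19, adjusted p = 0.000875), and Cenpe, a kinetochore motor (0.71 ± 0.13, adjusted p = 0.00111). The count was 25 without ICZ replicate 1, which holds the F5 library rich in mitochondrial reads, 6 without ICZ replicate 2 and 8 without ICZ replicate 3. Over all tested genes 17%, 8.99% and 6.32% passed in these fits in either direction.

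Other marker lists moved over the same fractions in vehicle mice. Of 14 crypt base stem cell markers 11 rose from F1 to F5, and their summed level went from 356 to 459 CPM in F1 to 665 to 1410 CPM in F5. All 7 tested Paneth cell markers rose, with a sum of 3110 to 6050 CPM in F1 and 6620 to 18700 CPM in F5. Of 14 enterocyte markers 13 fell, from a sum of 35500 to 46100 CPM to 12700 to 26700 CPM. Of the 16 tested genes of the early and heat shock response, which dissociation of a tissue can set off, 16 rose, from a sum of 612 to 1330 CPM to 3170 to 5590 CPM. Of 6 tested goblet cell markers 4 fell and 1 rose, and the sum went from 11700 to 16100 CPM down to 4520 to 6110 CPM. T cell markers were lower for 9 of 9, 1 of which fell by the test, with a sum of 283 to 777 CPM in F1 and 179 to 281 CPM in F5. No stem cell, Paneth cell or enterocyte marker in the table was at 0 reads. The part of these shifts in the levels of the mitosis genes was not tested. The summed level of the mitosis genes divided by that of the stem cell markers lay between 1.74 and 2.85 in all libraries but those of F4 and F5 of ICZ replicate 1, where it was 3.15 and 4.16.

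Genes elsewhere in the cell cycle were followed for comparison. Of 96 further tested mitosis genes 57 rose from F1 to F5 and 0 fell, with a median log2 fold change of 0.94. Those of smallest p were the spindle motor Kif15 (1.28 ± 0.17, adjusted p = 6.12e-05), the centriole gene Stil (1.88 ± 0.26, adjusted p = 8.32e-05) and the abscission gene Cep55 (1.81 ± 0.26, adjusted p = 0.000114). Of 45 DNA replication genes 34 rose, among them Pola1, a subunit of the primase-bound DNA polymerase (1.47 ± 0.18, adjusted p = 2.88e-05), the dUTPase Dut (1.35 ± 0.20, adjusted p = 0.000116) and the ribonucleotide reductase subunit Rrm1 (1.19 ± 0.19, adjusted p = 0.000238). The mitosis genes were higher relative to replication genes in late fractions: the ratio of the summed levels was 1.48, 1.06 and 1.14 in F1 of vehicle mice and 1.69, 1.71 and 1.6 in F5, and 1.09 and 1.03 in F1 and 1.72, 1.74 and 1.59 in F5 of ICZ mice. These ratios are given as a description.

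Of 21 tested regulators 9 rose, including the repressor E2f8 (1.25 ± 0.22, adjusted p = 0.000604), Mybl2, which encodes B-MYB (2.12 ± 0.45, adjusted p = 0.00217), and E2f1 (1.53 ± 0.36, adjusted p = 0.00499). The change of Mybl2 rests on few reads, at a mean of 0.68 CPM in F1 and 3.05 CPM in F5 of vehicle mice. Of 6 G1 cyclins and their kinases 5 rose, led by cyclin D1 (Ccnd1, 1.12 ± 0.20, adjusted p = 0.000685), Cdk6 (1.05 ± 0.23, adjusted p = 0.0038) and Cdk4 (0.90 ± 0.21, adjusted p = 0.00399). Among 6 tested inhibitors of cyclin-dependent kinases Cdkn2c rose by 0.94 ± 0.34 (adjusted p = 0.0459), and Cdkn1a, which encodes p21, fell by 0.47 ± 0.11 (adjusted p = 0.00371) on the log2 scale. Cdkn2b did not pass, at -0.21 ± 0.14 (adjusted p = 0.29).

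**Figure D4:**
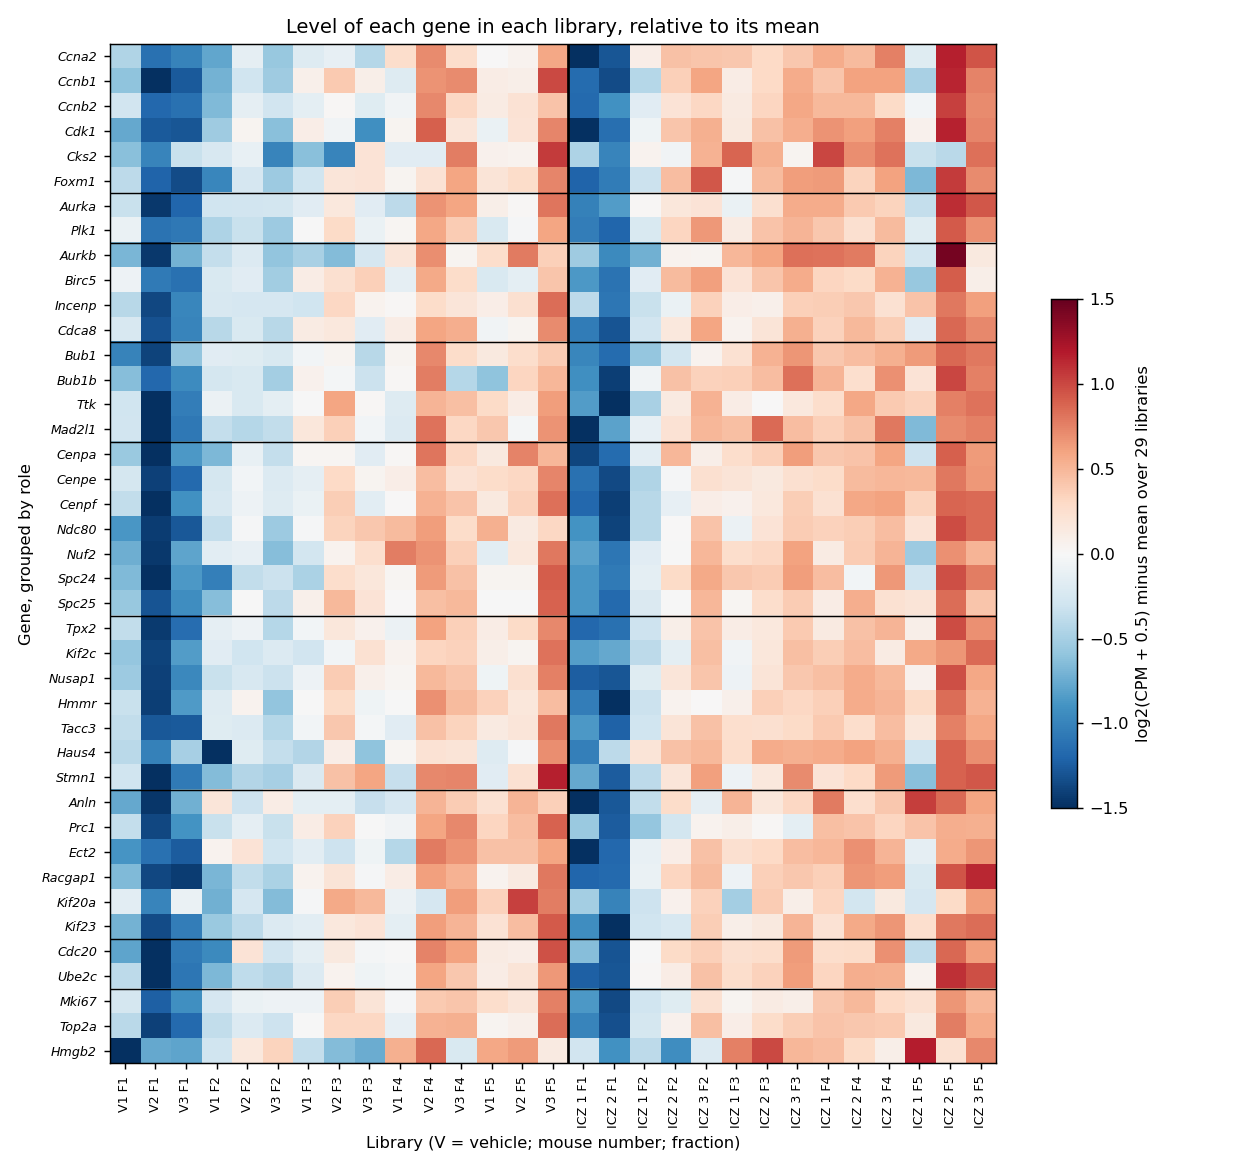
Level of 41 genes with reads (rows, grouped by role) in 29 libraries (columns), as log2(CPM + 0.5) minus the gene's mean, with colours limited at -1.5 and 1.5. F1 columns are blue in both treatments for most genes, and the bottom row, Hmgb2, departs from the others.

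Most of the genes varied together across libraries. The correlation of a gene's log2 CPM with the mean z score of the other genes, over 29 libraries that share mice, depth and fractions, ran from 0.547 for Hmgb2 to 0.985 for Ube2c. Nusap1 (0.984), Tpx2 (0.981) and Top2a (0.979) were close behind Ube2c, and Hmgb2, Cks2 (0.662), Kif20a (0.703) and Haus4 (0.802) lay at the other end. Once the means of each treatment and fraction were removed, the median correlation of the 41 genes went from 0.942 to 0.84. That of Anln went from 0.849 to 0.232, that of Cks2 to 0.272 and that of Hmgb2 to -0.488. The 10 genes outside the set with the most similar pattern, out of 9300 with a mean of at least 5 CPM, were Ccdc34 (Pearson r 0.983), Nucks1 (0.979), Ckap2l (0.979), Nedd4 (0.978), Rrm1 (0.978), Smc4 (0.977), Rps26 (0.975), Cdca3 (0.975), Smc2 (0.974) and Tcof1 (0.974). Of these, Ckap2l, Smc4, Cdca3 and Smc2 were on the list of further mitosis genes and Rrm1 on that of replication genes.

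Several genes share their last exon with a neighbour, and the strand setting of the counting is not given in the sources used here. Ccna2 overlaps Exosc9, Cdc20 overlaps Elovl1, Ube2c overlaps Tnnc2, Prc1 overlaps Rccd1 and Kif20a overlaps Cdc23 on the other strand, and Foxm1 overlaps Tex52 and Gm44596 on its own strand. Exosc9 and Elovl1 did not pass from F1 to F5 (-0.38 ± 0.24, adjusted p = 0.241, and -0.14 ± 0.12, adjusted p = 0.392), whereas Rccd1 rose by 2.13 ± 0.30 (adjusted p = 8.48e-05) while Prc1, which bundles the central spindle, rose by 1.41 ± 0.25 (adjusted p = 0.000682). In the last 300 bases of Prc1, where 3′ end reads mostly fall, no 50-base run recurs in Rccd1. For Kif20a, a cytokinesis motor, every 50-base run of the last 300 bases is shared with Cdc23, and its level is uncertain.

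ICZ was set against vehicle to ask whether the AHR agonist changed these genes within 12 h. With F2 to F5 added per mouse, 39 of 41 tested genes were higher in ICZ mice, with a median log2 fold change of 0.24 against 0.01 over all genes, and 0 of 41 passed the adjusted threshold. In the test without a block 0% of all 15497 genes passed, and 9 of the 41 had an unadjusted p under 0.05, against 5.72% of all. DESeq2 and limma voom also gave 0 of 41. The summed level ran from 1580 to 2070 CPM in the vehicle mice, with a median of 1970, and from 1820 to 2370 CPM in the ICZ mice, with a median of 2350, so the groups overlapped. By gene, 5 of 41 were higher in ICZ without overlap (Ccna2, Aurkb, Bub1b, Haus4 and Anln) and 0 lower, where 5.66% of all tested genes were higher without overlap.

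Vehicle and ICZ mice of the same number departed from their group means only partly alike. Over 15497 genes in the added counts, these deviations correlated at 0.381, 0.247 and 0.472 for replicates 1 to 3. A fit with the replicate number as a block, shown because of these values, gave another count. In it 8 of 41 genes rose and 0 fell, where 0.664% of all 16105 tested genes rose, and 27 of the 41 had an unadjusted p under 0.05, against 14.3% of all. The 8 were Ccna2 (adjusted p = 0.0023), Ube2c (0.00347), Cdk1 (0.00601), Haus4 (0.0137), Plk1 (0.0255), Ccnb2 (0.0288), Bub1b (0.0289) and Spc24 (0.032). The labels do not say what a replicate number stands for. The titles also give each mouse a WT number, which is the same in both treatments for replicates 2 and 3 but differs between vehicle and ICZ for replicate 1.

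Cyclin A2 had the smallest p of the set. Its level was 26.3, 32.8 and 30.2 CPM in vehicle replicates 1 to 3 and 35.8, 47.2 and 45.4 CPM in ICZ replicates 1 to 3, all above the vehicle mice. The log2 fold change was 0.53 ± 0.13 (adjusted p = 0.846, edgeR without a block) and 0.51 ± 0.08 with the block. Cdk1, its partner kinase, lay at 32.3, 43.5 and 34.9 CPM in vehicle and at 41.4, 57.6 and 54.1 CPM in ICZ, where ICZ replicate 1 was below vehicle replicate 2 (0.47 ± 0.15, adjusted p = 0.846; 0.46 ± 0.08 with the block). Each ICZ mouse was above the vehicle mouse of its own number.

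Haus4 measured 6.27, 8.95 and 9.29 CPM in vehicle and 10.5, 13.9 and 13.2 CPM in ICZ, without overlap (0.62 ± 0.18, adjusted p = 0.846; 0.62 ± 0.12 with the block). Bub1b measured 9.42, 12.8 and 9.71 CPM in vehicle and 13, 16.3 and 17.1 CPM in ICZ (0.54 ± 0.16, adjusted p = 0.846; 0.53 ± 0.12 with the block). These genes of the augmin complex and of the checkpoint were higher in every ICZ mouse than in any vehicle mouse, though the margin for Bub1b was narrow.

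Ube2c lay at 89, 113 and 116 CPM in vehicle and at 114, 155 and 160 CPM in ICZ, with ICZ replicate 1 between the vehicle mice (0.43 ± 0.15, adjusted p = 0.846; 0.42 ± 0.06 with the block). Aurkb lay at 5.36, 7.02 and 5.48 CPM in vehicle and at 7.09, 10.7 and 7.72 CPM in ICZ, just without overlap (0.52 ± 0.20, adjusted p = 0.846), and did not pass with the block either (0.50 ± 0.13, adjusted p = 0.0776).

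The smallest fitted difference of the 41 genes was that of Mki67, a common proliferation marker. It measured 154, 181 and 199 CPM in vehicle and 167, 196 and 190 CPM in ICZ, fully interleaved (0.05 ± 0.11, adjusted p = 0.966; 0.05 ± 0.07, adjusted p = 0.815 with the block). Top2a lay at 356, 441 and 509 CPM in vehicle and at 418, 515 and 524 CPM in ICZ (0.16 ± 0.14, adjusted p = 0.903; adjusted p = 0.281 with the block). Of the other genes that lead their roles, Birc5 stood at 0.30 ± 0.14, Nusap1 at 0.23 ± 0.15, Kif23 at 0.17 ± 0.17, Cenpf at 0.15 ± 0.14 and Ttk at 0.15 ± 0.14, with adjusted p from 0.846 to 0.912.

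By role, the median log2 fold change of ICZ against vehicle was 0.45 for mitotic entry (6 of 6 higher), 0.33 for the kinases, 0.32 for exit, 0.31 for the checkpoint, 0.28 for the passenger complex, 0.20 for the spindle, 0.17 for cytokinesis, 0.16 for the chromosomes and 0.15 for kinetochores. The 2 genes below 0 were both of cytokinesis, Prc1 (-0.09 ± 0.12) and Kif20a (-0.17 ± 0.27), and of these Kif20a shares the end of its transcript with Cdc23 as described above. The differences between roles were not tested. With and without CHR letters in the promoter the medians were 0.24 (24 genes) and 0.27 (9 genes), and for F5 against F1 they were 1.33 (24 genes) and 1.33 (8 genes).

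The size of the shift depended on which mice entered. The median over the genes was 0.15 without vehicle replicate 1, with 36 of 41 higher, 0.27 without vehicle replicate 2 and 0.31 without vehicle replicate 3. Leaving out ICZ replicate 1, 2 or 3 gave 0.35, 0.16 and 0.18. Other lists moved beside the mitosis genes in the added fractions. Stem cell markers were higher for 12 of 14 with a median of 0.07, and their sum was 635 to 1070 CPM in vehicle and 617 to 1280 CPM in ICZ. All 9 T cell markers were lower (median -0.49, sum 264 to 408 CPM in vehicle and 172 to 296 CPM in ICZ). All 16 tested genes of the early and heat shock response were lower too (median -0.50, sum 1370 to 2960 CPM and 878 to 2030 CPM), and 7 of them passed with the block. Stroma and endothelium markers summed to 9.77 to 12.2 CPM in vehicle and 11.2 to 37.7 CPM in ICZ, and B and plasma cell markers to 93.2 to 295 CPM and 65.4 to 98.7 CPM. The part of these shifts in the mitosis genes was not tested.

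In the rest of the cell cycle 80 of 98 further mitosis genes, 44 of 47 replication genes and 6 of 6 G1 cyclins and their kinases were higher in ICZ mice, and 0 passed without a block. The further mitosis genes of smallest p were the condensin subunit Ncapg (0.35 ± 0.11), Cdca3 (0.46 ± 0.15) and Kif15 (0.24 ± 0.08), each at an adjusted p of 0.846. The replication genes were the ribonucleotide reductase subunit Rrm2 (0.61 ± 0.17), the helicase subunit Mcm2 (0.40 ± 0.12) and the primase subunit Prim2 (0.56 ± 0.17), and the regulators the E2F partner Tfdp1 (0.55 ± 0.15), E2f8 (0.35 ± 0.12) and the MuvB subunit Lin54 (0.21 ± 0.10), all at the same adjusted p. With the block 4 further mitosis genes passed, all upward, Lmnb1 (adjusted p = 0.00202), Cdca3 (0.00481), Pbk (0.00837) and Cdca2 (0.0288). So did 5 replication genes, Rrm2 (0.0023), Tk1 (0.00601), Mcm2 (0.0289), Pold2 (0.032) and Rrm1 (0.0365), together with Tfdp1 (0.0121) and cyclin D2 (Ccnd2, 0.0305). Among these, Lmnb1, Pbk, Cdca2, Tk1, Pold2 and Rrm1 were named after their values were seen.

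Within single fractions ICZ and vehicle were compared library by library. In edgeR without a block 0 genes of the set passed in any fraction, where 0.0324%, 0.0165%, 0.00815%, 0% and 0% of all tested genes passed in F1 to F5. Median log2 fold changes were -0.22 in F1, 0.43 in F2, 0.23 in F3, 0.10 in F4 and 0.25 in F5. The genes varied together within treatment and fraction, at a median correlation of 0.84. Counts of genes higher or lower are therefore not counts of independent observations. At an unadjusted p under 0.05 there were 1, 19, 14, 1 and 2 genes, against 4.39%, 12%, 9.15%, 2.89% and 2.79% of all tested genes. DESeq2 called 2 genes in F2, 1 in F3 and 0 elsewhere, where it called 0.0714%, 0.388%, 0.074%, 0.0155% and 0.0113% of all genes with reads in F1 to F5. By limma voom 0 passed in each fraction.

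**Figure D5:**
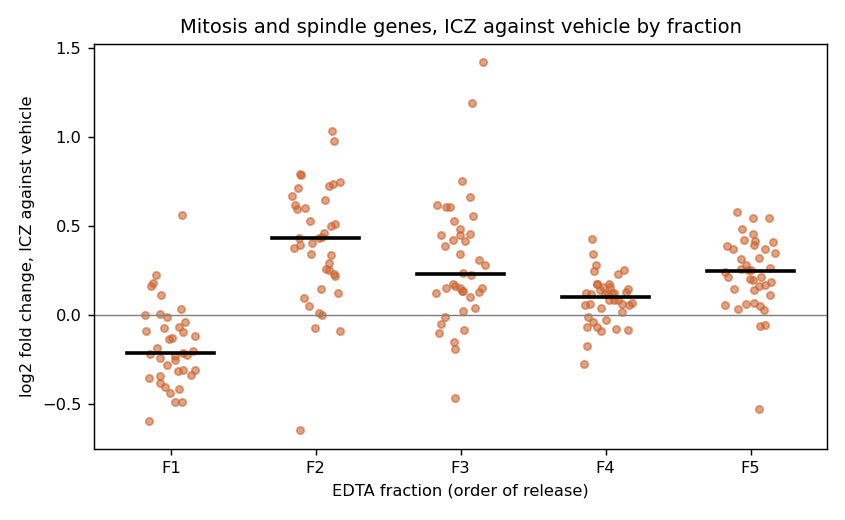
Log2 fold change of ICZ against vehicle for each tested gene (points) within each fraction, with the median as a black line. Points lie mostly below 0 in F1, where the median is -0.22, and mostly above 0 in F2, where it is 0.43.

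F1 stood on the other side of 0, with 31 of 39 genes lower in ICZ. Its smallest p was that of Ccna2, at 20.7, 12.9 and 14 CPM in the vehicle libraries and 9.41 and 11.4 CPM in the ICZ libraries (-0.59 ± 0.25, adjusted p = 0.995), followed by Hmmr, a spindle pole protein (-0.49 ± 0.30, adjusted p = 0.995), and Nusap1 (-0.33 ± 0.22, adjusted p = 0.995). Ccna2 was the 1 gene of 39 that was lower without overlap, where 9.11% of all tested genes were. Without vehicle replicate 1 the median turned to 0.12, with 25 of 39 higher. In F1 stem cell markers were also lower in ICZ for 11 of 13 tested (sum 356 to 459 CPM in vehicle and 284 to 330 CPM in ICZ), and goblet cell markers were higher for 5 of 6 (sum 11700 to 16100 CPM and 17800 to 18600 CPM). These sums did not overlap. In F1 0 of the markers passed in edgeR, with 3 and 4 at an unadjusted p under 0.05, and their part in the levels of the mitosis genes was not tested.

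In F2 36 of 39 genes were higher in ICZ mice, and 11 of 39 were higher without overlap, where 9.75% of all tested genes were. Ube2c lay at 61.8, 75.9 and 72.3 CPM in vehicle and at 99.9, 107 and 134 CPM in ICZ (0.67 ± 0.14, adjusted p = 0.0988), and Ccna2 at 16.4, 25.8 and 19 CPM in vehicle and 30.5, 39 and 38.2 CPM in ICZ (0.79 ± 0.18, adjusted p = 0.135). Neither overlapped. Racgap1 came next (0.75 ± 0.18, adjusted p = 0.157). Deviations of same-numbered F2 libraries from their group means correlated at only 0.155, 0.103 and 0.142. With the replicate number as a block 8 of 40 genes rose, where 0.84% of all tested genes rose. They were Ube2c (adjusted p = 0.00373), Ccna2 (0.00718), Spc24 (0.0073), Racgap1 (0.0152), Foxm1 (0.0245), Plk1 (0.0323), Cdk1 (0.0413) and Haus4 (0.0458). Without ICZ replicate 1 the fit without a block called 12, where 2.13% of all tested genes passed.

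The F2 libraries also differed in cell type markers. All 9 T cell markers were lower in ICZ, with a median of -1.42 and a sum of 382 to 895 CPM in vehicle and 149 to 293 CPM in ICZ. All 7 tested Paneth cell markers were higher (median 0.91, sum 5340 to 7200 CPM and 5600 to 16600 CPM), and so were 11 of 13 tested stem cell markers (median 0.41, sum 489 to 652 CPM and 535 to 1090 CPM). In F2 0 of these markers passed the adjusted threshold in edgeR without a block, with 9, 1 and 1 at an unadjusted p under 0.05. The part of the markers in the levels of the mitosis genes in F2 was not tested.

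In F3 33 of 40 genes were higher, 16 of them without overlap, where 8.53% of all tested genes were. Hmgb2 had the smallest p, at 4.58, 3.64 and 3.37 CPM in vehicle and 10.5, 12.4 and 8.66 CPM in ICZ (1.42 ± 0.24, adjusted p = 0.25), followed by Aurkb, at 3.87, 3.39 and 4.65 CPM in vehicle and 8.16, 8.72 and 10.4 CPM in ICZ (1.19 ± 0.24, adjusted p = 0.25), and Ccna2 (0.61 ± 0.14, adjusted p = 0.25). For Hmgb2 and Aurkb every ICZ library was well above every vehicle library, at few reads. Without vehicle replicate 1 these 3 passed, at adjusted p of 0.00407, 0.0236 and 0.0247, where 3.96% of all tested genes passed. Hmgb2 did not differ this way in F2, where it was at 4.77, 6.77 and 7.71 CPM in vehicle and 4.45, 2.92 and 5.14 CPM in ICZ. Immune cell markers stood apart in the F3 libraries. T cell markers were lower in ICZ for 8 of 9, with a sum of 215 to 365 CPM in vehicle and 174 to 198 CPM in ICZ, and B and plasma cell markers summed to 73.3 to 272 CPM and 54.8 to 60.7 CPM. In F3 0 of these markers passed in edgeR, with 5 and 0 at an unadjusted p under 0.05, and their part in the levels of the mitosis genes was not tested.

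In F4 and F5 the groups lay closer. In F4 30 of 40 genes were higher, and Haus4 was the 1 gene without overlap, against 3.94% of all tested genes (0.43 ± 0.18, adjusted p = 0.999). Next by p were Incenp, the scaffold of the passenger complex (0.17 ± 0.12, adjusted p = 0.999), and Aurkb (0.34 ± 0.25, adjusted p = 0.999). Without vehicle replicate 1 the median of F4 turned to -0.07. In F5 37 of 40 were higher, and Bub1 (0.54 ± 0.21) and Anln, the actin ring scaffold (0.49 ± 0.22), were the 2 without overlap, against 3.19% of all tested genes. Bub1b came next by p (0.58 ± 0.32), and all 3 had an adjusted p of 1. The F5 median was 0.09 without ICZ replicate 2, 0.49 without vehicle replicate 3 and 0.42 without ICZ replicate 1. Other lists differed in the same F5 libraries. Stroma and endothelium markers summed to 12 to 14.4 CPM in vehicle and to 23.9, 28.5 and 109 CPM in ICZ replicates 1 to 3. The filter on low counts left 4 of these markers. A marker near 0 in vehicle mice could pass the filter only through the ICZ libraries, so their directions are not counted here. Tuft cell markers summed to 23.9 to 27.9 CPM in vehicle and 34.3 to 76.4 CPM in ICZ. All 16 tested genes of the early and heat shock response were lower (median -0.72, sum 3170 to 5590 CPM and 1630 to 3540 CPM). In F5 0 of the tested genes of these lists passed in edgeR. At an unadjusted p under 0.05 there were 2 tuft cell markers and 6 genes of the early and heat shock response. The part of these lists in the levels of the mitosis genes was not tested.

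Whether the ICZ effect itself differed between fractions was tested in the 29 libraries, blocked by mouse. The 4 treatment by fraction terms together passed for 0 of 41 genes in edgeR, where 0.00711% of all tested genes passed, and 2 had an unadjusted p under 0.05, against 5.22% of all, Hmgb2 (adjusted p = 0.784) and Ccna2 (adjusted p = 0.903). A slope of the ICZ effect over fraction number passed for 0 of 40, where 0.0147% of all tested genes passed in either direction, and 1 gene, Anln, had an unadjusted p under 0.05 (0.20 ± 0.08 per fraction, adjusted p = 0.807), against 5.4% of all. The differences between the fractions' medians are thus given as values only.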

How the data were processed

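RNA of 29 assigned libraries was measured by QuantSeq 3′ mRNA-seq, per the labels. The authors deposited 1 table of whole-number read counts per gene, not normalized. Per the submitters' processing notes, the tools were FastQC 0.11.2, BWA 0.7.17-r1188, SAMtools 1.10 and HTSeq 0.11.2, on GRCm38.p6. Annotation release, strand setting and molecular identifiers: not given in the sources used here. Floors therefore cover counting error only. Summary lines that name no gene stayed out of library sizes and tests: 9.15% to 14.7% of all counted reads had no feature, 18% to 26.5% too low an alignment quality, 3.61% to 5.1% were ambiguous and 2.63% to 7.31% unaligned. Depth was 4359673 to 7819837 gene reads per library.

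Counts were tested with edgeR 4.0.16 (R 4.3.3): filterByExpr, TMM, robust quasi-likelihood F test, Benjamini-Hochberg adjustment over all tested genes at 0.05. SE is the size of the log2 fold change divided by the root of F. ICZ was compared on the F2 to F5 counts of a mouse summed and within fractions, without a block. Fractions of a mouse share an animal, so fraction tests had the mouse as a block. Members and lists were chosen with earlier results of these data known. Alternatives were DESeq2 1.42.0, limma 3.58.1 (voom), DESeq2's size factors, no filter, the replicate number as a block and leaving out each mouse. Others, equal weight of fractions and leaving out mitochondrial genes, were chosen after seeing the data. The scripts were tested on simulated data.

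Genes named with values were, per role, the one of highest mean CPM, the 6 of smallest p for ICZ, the 3 of largest and 3 of smallest change from F1 to F5, the 3 of smallest p per fraction and per other list, and the 10 most alike. Others were named after their values were seen. Replicate libraries were compared over 28 pairs within groups, with chi-square values of 4.74 to 96.1 per degree of freedom, so each counted as 1 replicate. Replicate numbers come from the labels, which do not say that they pair mice; for replicate 1 the WT numbers in the titles differ between treatments. Deviations of same-numbered mice from their group means correlated at 0.381, 0.247 and 0.472 in the added counts and at 0.155, 0.103 and 0.142 in F2, all over 0.1. For these comparisons the fit with the replicate number as a block is given beside the main fit, which has no block. In F1 (0.14 and 0.0652, from 2 pairs), F3, F4 and F5 at least 1 correlation was not over 0.1. Mice of different numbers reached a correlation of 0.151 in F4 and 0.163 in F5. Nothing in the labels says that mice were housed or handled separately. For 3 mice against 3 an exact permutation test cannot go below 0.1 and was not used.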

Additional observations from a re-analysis of the deposited data

How the results depend on the processing

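Counts are of genes of the set past an adjusted p of 0.05. With the replicate number as a block, ICZ against vehicle gave 8 genes in the added counts, 8 in F2 and 1 in F3 (Hmgb2, adjusted p = 0.0302) in place of 0, and it changed no call in F1, F4 or F5. Without a filter on low counts the added counts gave 1, F2 12, F3 5, the 4 treatment by fraction terms 4, F2 against F1 14, F3 against F2 4 and F4 against F3 3, each in place of 0. DESeq2 gave 2 in F2 and 1 in F3. Without the mouse block F5 against F2 in ICZ mice gave 9 in place of 16. Leaving out 1 mouse in turn gave 12 to 40 for F5 against F1, 6 to 25 for F5 against F2 in ICZ mice, 21 to 39 for the slope, 0 to 12 for F2 against F1, 0 to 1 for F3 against F2 and for F4 against F3, 0 to 12 for ICZ in F2 and 0 to 3 in F3. A fit without a mouse has fewer samples, and otherwise the cause was not tested. Where no share of all tested genes is given for a setting, as without a filter, its count does not tell the set apart from other genes. Without vehicle replicate 1 the medians of ICZ against vehicle in F1 and in F4 changed sign, as given above. Of the values of genes of the set named by rule, 492 kept direction and side of the threshold under an alternative. Another 31 came to pass the threshold, 10 no longer passed it, and 0 reversed. Genes of the set named otherwise, such as Mki67, are not in this tally. Within single fractions it holds only the 3 genes of smallest p, so the 0 reversals do not speak for the direction of the other genes. Depth limits the precision of Cks2 and Kif20a, which had few reads, and Kif11 is listed at 0. Cdc20 and Hmgb2, among the 3 genes of largest change from F1 to F5, also had few reads in F1. In the F1 libraries of vehicle replicates 1 to 3 Cdc20 had 24, 9 and 18 reads and Hmgb2 9, 21 and 22.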

Other observations

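A library whose label names neither treatment nor fraction held 7484796 gene reads, and the 42 genes summed to 1739 CPM before scaling, within the 588.2 to 3116 CPM of the 29 assigned libraries. It had 1203 reads of Mki67 and 234 of Ccna2. This library, titled Undetermined, also held 5860420 unaligned reads, whereas 2.63% to 7.31% of all counted reads were unaligned in the assigned libraries.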
